A study of Mus musculus with 7 samples.

Results

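The unnumbered pair of libraries in this series sets regulatory T cells titled control against regulatory T cells titled Id2/Id3 double knockout (dKO), with 1 library a side, and it is the only comparison of the series quantified transcript by transcript. It holds 2 of the 7 libraries. The deposited table lists 27901 RefSeq transcript entries, and the 13190 entries that Cuffdiff, the program that made it, gave the status OK under their own accession are described here. The cells were CD4+TCRb+CD25hi Foxp3+ cells sorted from lymph nodes of C57BL/6 mice aged 3 weeks, and the remaining 5 libraries are 2 control and 3 dKO libraries with numbers, analysed in a table of their own. In this pair the genotype tags run against the titles and source names: the library titled Control_Treg carries the tag Id2fl/flId3fl/flFoxp3cre, and the library titled Id2_3_dKO_Treg carries Id2fl/+Id3fl/+Foxp3cre. The tags of the numbered libraries go with their titles. The libraries are therefore called by their titles, as labelled control or labelled dKO, and every ratio given here changes sign if the tags are right. Both carry Foxp3-Cre, which deletes floxed alleles in cells that express Foxp3, so neither is free of Cre, and the labels tie no library to its own animal. With 1 library a side there is no replicate check of any difference, and no test was run.

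Id2 and Id3 are helix-loop-helix proteins without a DNA-binding region, and they hold E proteins such as the products of Tcf3 and Tcf12 off DNA. Foxp3 is the transcription factor that defines regulatory T cells, the lineage that restrains immune responses. Most mouse genes give more than 1 messenger RNA, by a different first exon, by a skipped or exchanged exon, or by a shift of a few bases at a splice site. A program that assigns short reads to transcripts has to divide the reads that fit several of them, and only the bases that differ tell them apart.

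The sequences in this paragraph are the stretches by which the transcripts described below differ, and they are shown because many of these entries went opposite ways; most pairs also differ elsewhere. They are read 5′ to 3′ from the GENCODE M21 transcripts (GRCm38) paired with the RefSeq accessions, with the differing bases in capitals and up to 21 bases of the same transcript on each side. In each of the first 9, the entry that has the 3 capital bases is compared with an entry that lacks them.
Crbn (chr6:106795995-106795997, minus strand): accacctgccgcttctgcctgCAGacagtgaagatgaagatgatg
Ahcyl2 (chr6:29863140-29863142, plus strand): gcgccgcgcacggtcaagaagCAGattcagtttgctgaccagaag
Mrps10 (chr17:47372573-47372575, plus strand): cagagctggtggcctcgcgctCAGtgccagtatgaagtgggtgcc
Il9r (chr11:32193379-32193381, minus strand): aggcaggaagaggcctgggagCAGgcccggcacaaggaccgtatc
Nolc1 (chr19:46078873-46078875, plus strand): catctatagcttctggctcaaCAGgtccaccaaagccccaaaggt
Rbm3 (chrX:8143330-8143332, minus strand): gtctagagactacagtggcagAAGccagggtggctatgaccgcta
Irak1 (chrX:74022662-74022664, minus strand): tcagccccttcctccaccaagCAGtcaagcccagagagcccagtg
Kat2a (chr11:100708983-100708985, minus strand): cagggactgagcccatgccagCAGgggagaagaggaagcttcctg
Btla (chr16:45244153-45244155, plus strand): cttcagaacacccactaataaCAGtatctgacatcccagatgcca
In Stat3 the 50 capital bases at chr11:100889541-100889590, minus strand, lie in exon 23 of 24 and are missing from NM_011486, the form known as STAT3beta, which lacks the C-terminal transactivation region.
Stat3: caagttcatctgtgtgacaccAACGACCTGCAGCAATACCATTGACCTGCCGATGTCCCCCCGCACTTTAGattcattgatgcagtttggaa
In Pecam1 the capital bases are exon 14 of 15 at chr11:106671742-106671798, minus strand, present in NM_008816 and skipped in NM_001032378.
Pecam1: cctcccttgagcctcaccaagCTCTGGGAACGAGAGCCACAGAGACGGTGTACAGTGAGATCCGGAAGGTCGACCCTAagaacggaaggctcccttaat
In Septin2 the 9 capital bases at chr1:93489146-93489154, plus strand, are the coding end of a 27-base exon that only NM_010891 has.
Septin2: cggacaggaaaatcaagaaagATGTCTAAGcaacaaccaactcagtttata
In Tcf3 whole exons are exchanged, at chr10:80412827-80413062 and chr10:80410398-80410624, minus strand. They are the mutually exclusive exons for the basic helix-loop-helix region that distinguish the E proteins E12 and E47, and they are given here without flanks and without capitals, the 236-base exon first.
Tcf3 exon of 236 bases: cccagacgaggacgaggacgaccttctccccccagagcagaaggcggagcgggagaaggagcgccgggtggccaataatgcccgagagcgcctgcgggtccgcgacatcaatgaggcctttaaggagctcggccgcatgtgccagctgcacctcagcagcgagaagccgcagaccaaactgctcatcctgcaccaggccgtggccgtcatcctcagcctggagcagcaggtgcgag
Tcf3 exon of 227 bases: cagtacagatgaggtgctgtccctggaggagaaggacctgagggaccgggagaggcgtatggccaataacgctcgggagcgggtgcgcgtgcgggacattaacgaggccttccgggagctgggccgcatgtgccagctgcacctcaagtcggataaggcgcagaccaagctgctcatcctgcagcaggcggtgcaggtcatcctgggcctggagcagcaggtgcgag

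Values are FPKM, fragments scaled to transcript length and to the library's total. A log2 ratio is that of the library labelled dKO over the library labelled control after adding 1 FPKM to both, which understates the change of low entries. Of the 13190 entries, 9715 reached 5 FPKM in at least 1 library, and the statements on many entries are about these. Their median log2 ratio was 0.01, and the 5th and 95th percentiles were -1.07 and 1.003. Among them 488 (5.02%) were at least 2-fold higher and 542 (5.58%) at least 2-fold lower in the library labelled dKO. Read counts are not in the table, so the depth of each library is unknown. A log2 ratio of -0.0458 without pseudocount recurred in 837 entries of the whole table, of any status, and ratios 1 above and 1 below it in 363 and 279 (each within 0.0005), as entries with equal, doubled or halved read numbers give.

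Sex-linked genes set the libraries apart. Eif2s3y, a Y-linked translation factor gene, was 51.3 FPKM in the library labelled control and 0.0981 FPKM in the library labelled dKO. Ddx3y, a Y-linked helicase gene, was 21.6 and 0.156 FPKM. Xist, the RNA that silences the inactive X, was 0.0139 and 27.9 FPKM (NR_001463). In the authors' deposited table Eif2s3y had group means of 508 (control) and 3.30 (dKO) scaled counts, and Xist 19641 and 17063. In the pair, Y-linked RNA was thus nearly all in one library and Xist in the other, and the genotype, the title and these sex-linked genes cannot be told apart within the pair.

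Of the targeted genes, Id2 was lower and Id3 higher in the library labelled dKO. Id2 was 18.6 FPKM in the library labelled control and 9.69 FPKM in the library labelled dKO (log2 ratio -0.87). Id3 was 160 and 221 FPKM (log2 0.47). For the numbered libraries, the authors' deposited table gives Id2 a mean of 783 scaled counts in the control group and 61.1 in the dKO group (log2 -3.68, adjusted p = 1.48e-08), and Id3 1376 and 891 (log2 -0.63, adjusted p = 0.209). A conditional deletion that spares part of a gene can leave reads from the rest. The labels do not say which exons the floxed alleles remove. The numbered dKO group kept little Id2 signal (61.1 against 783 scaled counts), while the library labelled dKO had 9.69 against 18.6 FPKM. Whether the titles or the tags are right was not tested with these values.

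The cells carried the markers of regulatory T cells in both libraries. All 18 genes of the regulatory T cell identity list in the table reached 5 FPKM, with 23 entries. Foxp3 has 3 entries with the same coding length of 1287 bases. Its main entry NM_054039 was 105 FPKM in the library labelled control and 89.1 FPKM in the library labelled dKO. NM_001199348, whose first exon lies at chrX:7580483-7580578, was 20.9 and 9.04 FPKM, and NM_001199347 was listed at 0 and 1.57 FPKM. Of the 23 entries, 3 were at least 2-fold higher and 5 at least 2-fold lower, against 5.02% and 5.58% of all entries. Their median log2 ratio was -0.28 against 0.01 for all entries. Nt5e, which encodes the adenosine-producing enzyme CD73, was 59.2 and 23.8 FPKM. The 2 entries of Capg, an actin-capping protein gene, were 231 and 99.2 FPKM (NM_001042534) and 221 and 163 FPKM (NM_007599). Among entries of Socs2, a feedback inhibitor of cytokine receptors, NM_001168655 was 3.92 and 10.2 FPKM while the main one, NM_007706, was 22.6 and 26.1 FPKM.

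**Figure D1:**
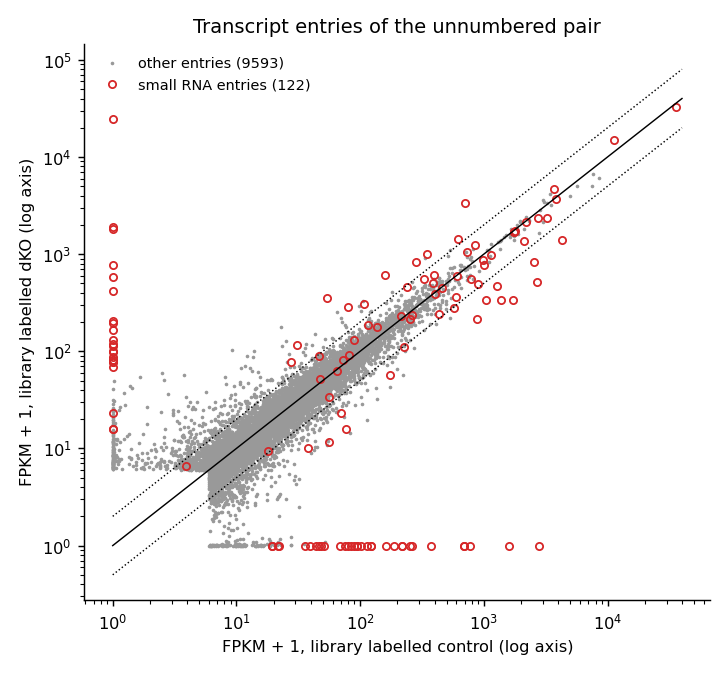
Each point is a transcript entry at 5 FPKM or more in at least 1 library, with FPKM + 1 in the library labelled control (x, log axis) and in the library labelled dKO (y, log axis); the solid line marks equal values and the dotted lines 2-fold. Most of the 9593 other entries (grey) lie between the dotted lines, with 9.89% past 2-fold, and many of the 122 small RNA entries (red) lie on an axis, at 0 in 1 library.

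Transcripts of the same gene often moved apart. Of 824 genes with at least 2 entries at 5 FPKM or more, 406 (49.3%) had entries whose log2 ratios were at least 1 apart, and the median over all 824 was 0.98, so the threshold falls in the middle of the values. The genes just inside and just outside it had differences of 1.003 and 0.999. In 104 of the 406 genes, 1 entry was at least 2-fold higher and another at least 2-fold lower. The summed FPKM stayed within 1.5-fold in 87 of these 104 genes, which were chosen for entries that moved opposite ways. It did so in 342 of the 405 differing genes that reached a sum of 5 FPKM in both libraries. The median absolute log2 ratio of the sum was 0.23 in genes whose entries differed and 0.23 in those whose entries did not. A level total was thus not particular to genes whose entries differed. In 18 of the 104 genes, the entry that rose most was under 0.1 FPKM in the library labelled control. The entry that fell most was under 0.1 FPKM in the library labelled dKO. Further entries of these genes were not considered. Ahcyl2 NM_001171001, for instance, led its gene in both libraries, at 33.7 and 97.5 FPKM. By share of the gene's FPKM, 382 of 1339 genes (28.5%) had an entry whose share shifted by at least 20 percentage points, and in 192 of these another entry led. A difference past the threshold was therefore common among genes with several entries in this pair.

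Septin2, a filament-forming GTPase gene, showed the largest shift of share. NM_010891, with the extra exon shown above, was 0.000909 FPKM in the library labelled control and 24.9 FPKM in the library labelled dKO. NM_001159718, without it, was 26.5 and 0.00607 FPKM. The summed FPKM was 26.5 and 24.9, so the gene's total was level while its entries exchanged places. In the authors' deposited table Septin2 had an adjusted p of 1.

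Nolc1, a nucleolar phosphoprotein gene, showed the largest difference between entries. NM_053086 was 0.24 and 36.0 FPKM, and NM_001039352 was 0.431 and 41.1 FPKM. NM_001039353 was 34.0 and 0.0403 FPKM, and NM_001039351 was 19.0 and 0.0351 FPKM. The first pair was thus near 0 in the library labelled control and the second pair near 0 in the library labelled dKO, with sums of 53.7 and 77.2 FPKM.

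Hdac5 (a class II histone deacetylase), Lclat1 (an acyltransferase), Wbp1 and Tpx2 (a spindle assembly factor) gave the same picture. For these, the GENCODE transcript taken for both extreme entries was the same, so what separates them could not be read. Hdac5 NM_010412 was 18.4 and 0.0460 FPKM, and NM_001077696 was 0.00108 and 14.2 FPKM. Tpx2 NM_001141978 was 8.71 and 0.0289 FPKM, and NM_001141975 was 0.00176 and 22.7 FPKM. Such pairs made up 92 of the 824 genes, 721 could be compared, and 11 had no pair of models.

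The more alike the models, the more often their values parted. Where the models differed by 0 to 30 bases, 17 of 23 genes (73.9%) had log2 ratios at least 1 apart. The share was 66.7% (46 of 69) for 31 to 100 bases, 53.2% (92 of 173) over 100 and up to 300 bases, and 46.2% (109 of 236) over 300 and up to 1000 bases. Above 1000 bases it was 38.2% (84 of 220). Level moved with it too: by the higher FPKM of the 2 entries, the share was 59.0% in the lowest class, from 5 to 15 FPKM, and 35.9% in the class from 60 FPKM. With more entries to choose the extremes from, it was 43.6% in genes with 2 entries, 72.0% in genes with 3 and 91.2% in genes with 4 or more. Among genes with exactly 2 entries it was 61.4% (35 of 57) for 31 to 100 bases and 35.8% (68 of 190) above 1000. The parts of model likeness, level and entry number in the differences were not tested.

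In 42 genes the coding sequences of the 2 extreme entries differed by 3 bases, and in all 42 these were the first 3 bases of an exon and ended in AG, 33 of them as CAG. An exon that can start at either of 2 adjacent AG sites, a tandem acceptor, adds or drops 1 codon or exchanges residues at the junction, with no frame shift. Of the 42 genes, 28 (66.7%) had log2 ratios at least 1 apart, with a median difference of 3.38 over the 42. For comparison, 48.6% of the 177 genes with identical coding sequence (86 genes) did. Most of the 42 pairs also differed outside the coding sequence, so the triplet is rarely the only difference. Among the 28, the entry with the triplet had the higher log2 ratio in 17 and the lower in 11, so neither form was favoured throughout.

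Crbn encodes cereblon, the substrate receptor of a ubiquitin ligase, and its models differed by 12 bases. The entry with CAG, NM_175357, was 0.882 and 25.5 FPKM, and NM_021449 without it was 20.03 and 0.00739 FPKM, so the form with the triplet made up 4.22% of the gene in the library labelled control and 99.97% in the library labelled dKO. Il9r, the interleukin-9 receptor gene, went the other way: NM_001134458 with CAG was 7.76 and 0.263 FPKM, and NM_008374 was 0.00737 and 5.14 FPKM. Ahcyl2 NM_021414 with CAG was 17.6 and 0.00170 FPKM and NM_001171000 was 0.0353 and 17.3 FPKM, while its remaining entry NM_001171001 was 33.7 and 97.5 FPKM. Mrps10, a mitochondrial ribosomal protein gene with models 9 bases apart, was 7.48 and 0.0797 FPKM with CAG (NM_001146212) and 0.0106 and 21.2 FPKM without (NM_001146211). Rbm3, a cold-inducible RNA-binding protein gene, was 12.6 and 0.0934 FPKM with AAG (NM_001166409) and 0.0187 and 29.7 FPKM without (NM_001166411).

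Irak1, Kat2a and Btla were picked from the 42 after their values were seen, to show the range. Irak1, a kinase of interleukin-1 and Toll-like receptor signalling, was 45.5 and 35.1 FPKM with CAG (NM_001177975) and 0.00376 and 21 FPKM without. Kat2a, a histone acetyltransferase gene whose models differ by those 3 bases alone, was 7.77 and 18.9 FPKM with CAG (NM_020004) and 36.6 and 20.5 FPKM without, a smaller shift in which both forms were present in both libraries. Btla, an inhibitory receptor gene, was 15.7 and 27.6 FPKM with CAG (NM_001037719) and 14.8 and 25.8 FPKM without, so its forms moved together.

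**Figure D2:**
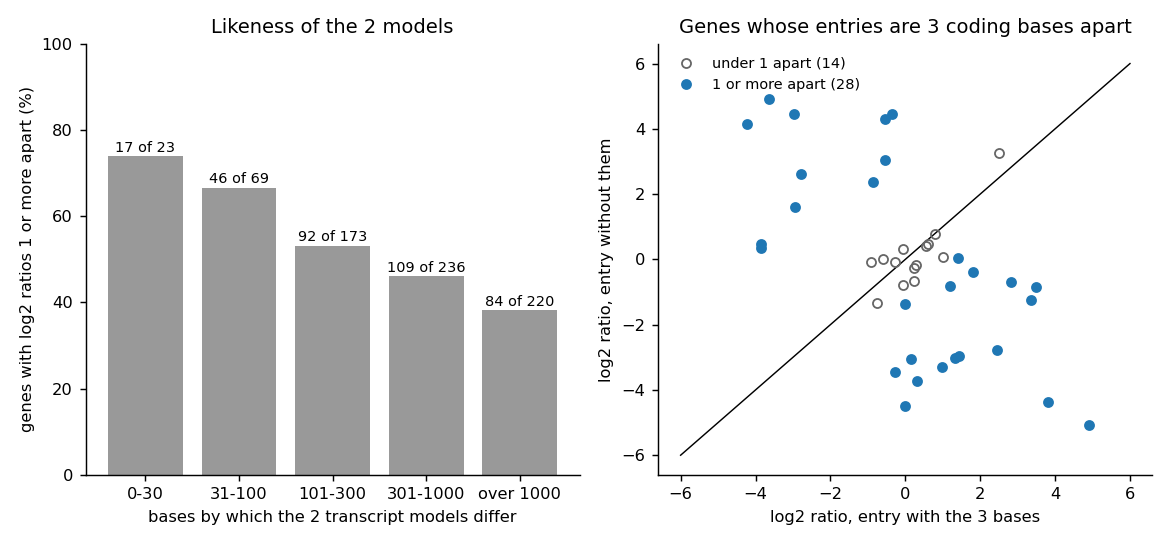
Left, the share of genes (%) whose 2 extreme entries had log2 ratios at least 1 apart, by the number of bases that separate their GENCODE models, falling from 73.9% to 38.2%. Right, the 42 genes whose entries are 3 coding bases apart, with the log2 ratio of the entry that has the 3 bases (x) against that of the entry without (y); the line marks equal ratios and 28 genes (blue) are at least 1 apart.

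Among the genes with known T cell isoforms, Stat3, the transcription factor downstream of interleukin-6 family and interleukin-10 receptors, parted most. NM_011486, which lacks the 50 bases shown above, was 26.9 FPKM in the library labelled control and 0.00523 FPKM in the library labelled dKO. NM_213659 was 31.3 and 69.5 FPKM, and NM_213660 was 20.1 and 29.4 FPKM. The form without the 50 bases was thus 34.3% of the gene's FPKM in the first library and 0.00529% in the second, while the sum went from 78.3 to 99.0 FPKM. The 50 bases are not the only difference: the models of NM_011486 and NM_213659 were 1898 bases apart, with 1712 bases only in NM_011486. In the authors' deposited table Stat3 had a log2 ratio of 0.13 and an adjusted p of 1.

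Tcf3, whose E proteins are the direct partners of Id2 and Id3, has 7 entries, which were added by the exon they carry. The 3 entries with the 236-base exon summed to 25.4 FPKM in the library labelled control and 32.6 FPKM in the library labelled dKO. The 4 entries with the 227-base exon summed to 51.8 and 32.4 FPKM, so that exon's share was 67.1% and 49.8%. NM_011548 of that form was 18.8 and 5.67 FPKM, and NM_001164149 of the other form was 17.3 and 25.9 FPKM. Tcf3 as a whole was 77.2 and 65.1 FPKM, whereas the authors' deposited table has it at means of 3194 (control) and 5071 (dKO) scaled counts, a log2 ratio of 0.67 with an adjusted p of 2.9e-05, the opposite sign. The share of an exon in the numbered libraries is not in that table.

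Satb1, a chromatin organizer of T cells, has entries with the same coding length of 2292 bases and different first exons. NM_009122 was 42.1 and 9.30 FPKM and NM_001163632 was 4.58 and 16.9 FPKM, so the leading entry changed, with NM_009122 at 73.4% and then 23.1% of the gene. NM_001163630 was 9.41 and 14.0 FPKM. The gene's sum was 57.4 and 40.3 FPKM.

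Pecam1, an adhesion receptor gene placed in the stromal marker list, was 52.2 and 25.5 FPKM with the exon shown above (NM_008816) and 4.98 and 25.9 FPKM without it (NM_001032378). The exon's share was 91.3% and 49.7%, at sums of 57.2 and 51.4 FPKM. In Ptprc, which encodes CD45, the entry with exons 4 to 6 (NM_001111316; 129, 147 and 141 bases) was 31.2 and 15.2 FPKM, 10.7% and 5.03% of the gene, and NM_011210 without them was 261 and 287 FPKM. In Ikzf1, the gene of the zinc-finger factor Ikaros, the entry with a 261-base exon at chr11:11748311-11748571 (NM_001025597) was 79.5 and 62.1 FPKM and the entry without it (NM_009578) was 24.4 and 34.8 FPKM, a share of 76.5% and 64.1% for the exon. The models of the Ikzf1 entries were 3621 bases apart, so that exon is not their only difference. The differences between entries were 1.13 in Ptprc and 0.85 in Ikzf1, near the median of 0.98 over all genes with several entries.

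Foxp1, a forkhead factor of naive T cells, was 28.4 and 21.2 FPKM as NM_053202, 18.1 and 28.0 FPKM as NM_001197322 and 4.15 and 8.98 FPKM as NM_001197321. The remaining members of that list with several entries were closer together. Lck, the kinase of the CD4 coreceptor, had a largest difference of 0.73, Cd6 of 0.67, Fyn of 0.58, Nfatc2 of 0.54 and Cd247, the T cell receptor zeta chain gene, of 0.22, while Nfatc1 with 6 entries reached 1.31. The list's 59 entries had a median log2 ratio of -0.01. Beside 5.02% and 5.58% over all entries, 3 of them were at least 2-fold higher and 3 at least 2-fold lower. Besides entries of Stat3 and Foxp3, these included Ctla4, an inhibitory receptor of regulatory T cells, at 182 and 408 FPKM, and Ikzf3, the gene of the zinc-finger factor Aiolos, at 76.1 and 178 FPKM.

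**Figure D3:**
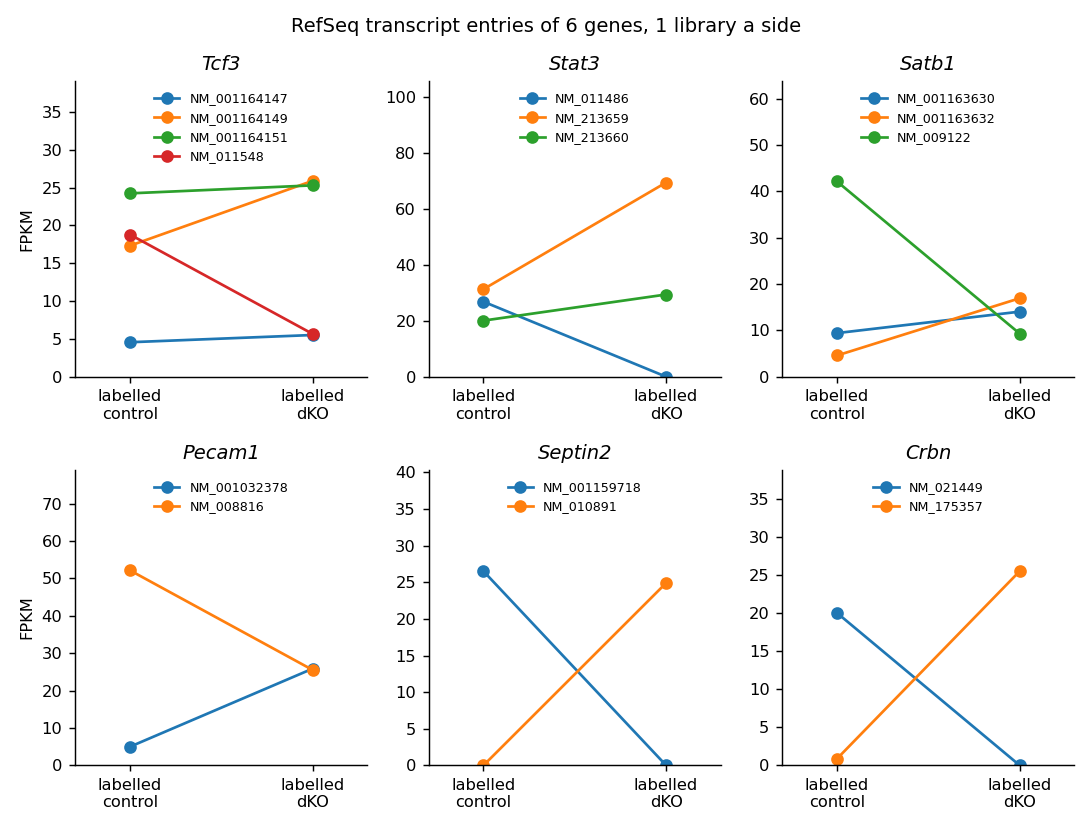
FPKM (y, from 0) of each RefSeq entry at 5 FPKM or more in at least 1 library, for 6 genes, in the library labelled control (left) and the library labelled dKO (right); each line is 1 entry. The lines of Septin2 and Crbn cross from near 0 to near 25 FPKM, those of Stat3 diverge, and those of Pecam1 meet near 25 FPKM.

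The largest differences of single entries were those of small RNA genes. Small nucleolar RNAs guide the modification of ribosomal RNA, and microRNA hairpins are cut to the short RNAs that repress messengers through a seed, bases 2 to 8. All 24 entries at the top of the ranking, 12 in each direction among entries with 10 FPKM or more in at least 1 library, belonged to such genes and were at 0 in 1 library. The box C/D RNA gene Snord37 was at 0 in the library labelled control and 24892 FPKM in the library labelled dKO, and Snord99 at 0 and 1890 FPKM. Scarna17, a guide RNA of Cajal bodies, was 2790 FPKM and 0, and Snord65 was 1584 FPKM and 0. Of 122 small RNA entries at 5 FPKM or more, 66.4% were past 2-fold (33 higher, 48 lower), against 9.89% of the 9593 other entries (455 higher, 494 lower). In 55 of the 66 small RNA entries above 0 in both libraries (83.3%) the ratio, taken over the recurring ratio given above, was within 0.0005 on the log2 scale one of whole read numbers of at most 10, against 2.41% of other entries. FPKM divides by transcript length, so few reads give a large value on a short RNA.

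The 13 microRNA genes among them have hairpins of 66 to 93 bases, and all 13 were found in RefSeq (GRCm38.p6). The sequences of 4 well-known ones are given with the seed in capitals.
miR-23a-3p: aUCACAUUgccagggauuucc
miR-24-3p: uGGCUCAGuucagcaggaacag
miR-19b-3p: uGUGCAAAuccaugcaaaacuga
let-7e-5p: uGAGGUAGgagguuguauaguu
Mir23a was 372 FPKM in the library labelled control and 0 in the library labelled dKO, Mir19b-1 was 251 FPKM and 0, and Mirlet7e was 0 and 117 FPKM. Mir23b and Mir24-1 are neighbours, at chr13:63300484-63300557 and chr13:63301208-63301275 on the plus strand. Mir24-1 was 691 FPKM and 0, while Mir23b was 0 and 195 FPKM, so neighbouring hairpins were listed in different libraries. The values concern fragments on the hairpin locus in a library primed with random hexamers and oligo-dT, not the mature microRNA.

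Without small RNA genes, a ranking added after the values were seen, many of the top entries belonged to genes with several transcripts. Arhgef1, an exchange factor for the GTPase RhoA, had the highest ratio: NM_001130153 was 0.0213 and 49.0 FPKM, and NM_001130152, with the same coding length of 2760 bases and another first exon, was 197 and 64.3 FPKM. The leading Arhgef1 entry in both libraries was NM_001130151, at 387 and 263 FPKM, and NM_001130150 was 96.4 and 96.1 FPKM. The gene's sums were 681 and 472 FPKM. Fkbp2 NM_001166368 was 0.370 and 43.4 FPKM and NM_008020 was 65.1 and 23.4 FPKM, at sums of 65.5 and 66.8 FPKM. Canx, the calnexin gene of the unfolded protein response list, whose entries were given the same GENCODE transcript, had NM_001110500 at 14.8 and 0.0236 FPKM beside NM_007597 at 84.1 and 98.6 FPKM. Whole genes were among them too. Mzb1, a chaperone of plasma cells and marginal zone B cells, was 0.676 and 53.8 FPKM. Gzma, the cytotoxic granule protease gene, was 1.53 and 59.3 FPKM. In the authors' deposited table the group means of Mzb1 were 11.2 scaled counts (control) and 905 (dKO), with an adjusted p of 1.37e-11, and those of Gzma 59.6 and 2006, with an adjusted p of 0.126.

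Most markers of other cells were low. The B cell list, 15 genes, summed to 116 and 118 FPKM, with 8 of its genes under 1 FPKM in both libraries, and Cd79b was 25.3 and 39.2 FPKM. Of its gene Cd74, NM_010545 was 66.5 and 56.6 FPKM, and NM_001042605, with an extra 192-base exon, was 14.1 and 6.06 FPKM. The plasma cell list summed to 125 and 234 FPKM, of which Mzb1, Xbp1 and Irf4 made most, and Jchain was 2.38 and 4.56 FPKM. The natural killer cell list summed to 5.55 and 63.7 FPKM, of which Gzma was 1.53 and 59.3 FPKM and Prf1, the perforin gene, 2.65 and 2.03 FPKM, and 5 of its 8 genes were under 1 FPKM in both libraries. The myeloid list summed to 247 and 184 FPKM, nearly all from Ctss, a cathepsin gene, at 245 and 178 FPKM, with 9 of 12 genes under 1 FPKM in both libraries. Irf8 made most of the dendritic cell list at 20.8 and 46.2 FPKM. Cd8b1 was 18.6 and 24.5 FPKM while Cd8a was 0.408 and 1.21 FPKM. In a sorted population, a few other cells with much RNA and a change in every cell cannot be told apart from these values, and the part of other cells in the results was not tested.

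The medians of the lists described next were all within 2-fold. Their counts past 2-fold stand beside 5.02% of all entries 2-fold higher and 5.58% lower. Entries of the G2 and M phase list, which carry out mitosis, were higher in the library labelled dKO in 25 of 26 cases, with a median log2 ratio of 0.71, and only 1 was 2-fold higher and 1 lower, both of Tpx2. Mki67, the proliferation marker, was 23.4 and 46.1 FPKM, and Bub1, a spindle checkpoint kinase, was 4.17 and 9.11 FPKM. Of the S phase and replication list 26 of 30 entries were higher, with a median of 0.45, 2 entries 2-fold higher and 1 lower. Rrm2, the small subunit of ribonucleotide reductase, was 56.8 and 99.2 FPKM. Entries of one gene differed in direction in this list too. Uhrf1, a partner of the maintenance DNA methyltransferase, was 5.67 and 18.9 FPKM as NM_010931 and 12 and 4.0 FPKM as NM_001111080. Ung, the uracil glycosylase gene, was 6.67 and 21.5 FPKM as NM_011677 and 26.0 and 22.7 FPKM as NM_001040691.

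Entries of the glycolysis list had a median log2 ratio of 0.49, with 12 of 17 higher and 2 past 2-fold. Of the list's 18 genes, 15 reached 5 FPKM. Gapdh (0.308 and 0.596 FPKM), Eno1 (1.26 and 1.22 FPKM) and Pgam1 (1.94 and 1.18 FPKM) did not, and why these were so low was not tested. Hif1a, the hypoxia-inducible factor gene, was 51.1 and 133 FPKM, and Tpi1 was 52.4 and 97.9 FPKM. The lactate carrier gene Slc16a3 was 0.622 and 10.3 FPKM as NM_001038653 but 6.70 and 6.22 FPKM as NM_001038654. Its entry NM_030696, just under the 5 FPKM minimum and so not counted, was 4.98 and 0.0106 FPKM. The sums of Slc16a3 were 12.3 and 16.5 FPKM. Of the type I interferon response list, 4 of 25 entries were higher and the median was -0.51, with 3 past 2-fold, all lower. These were Oas1a (8.03 and 2.55 FPKM) and Oas2 (8.67 and 3.41 FPKM), both oligoadenylate synthetase genes, and Usp18 (43.0 and 20.3 FPKM), which encodes a protease that removes ISG15.

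The effector regulatory T cell list had 1 entry 2-fold higher and 3 lower of 18, with a median of -0.14. Il10, the suppressive cytokine, was 11.8 and 66.5 FPKM. Klrg1, a receptor of terminally differentiated cells, was 18.2 and 4.97 FPKM, and Gzmb, granzyme B, was 17.4 and 5.69 FPKM. Of the 12 follicular entries, 1 was 2-fold higher, Cxcr5, the receptor that leads cells to B cell follicles, at 35.9 and 119 FPKM, and 1 was lower, Cd200 at 58.3 and 24.5 FPKM. Maf, in the follicular and T helper 17 lists, was 71.6 and 38.9 FPKM. The naive and lymph node homing list had 19 entries with a median of -0.31, 1 of them 2-fold higher and 3 lower. S1pr1, the receptor for lymph node exit, was 189 and 86.0 FPKM and Igfbp4 was 273 and 108 FPKM. The T helper 17 list had 8 entries with a median of -0.46 and 2 past 2-fold, both of Ccr6, the receptor for CCL20: NM_001190337 was 32.7 and 11.2 FPKM and NM_001190333 was 6.58 and 2.01 FPKM.

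Of the E protein and Id network list, 10 entries reached 5 FPKM, with a median of 0.14, 1 of them 2-fold higher and 1 lower. The higher one was of Lyl1, a basic helix-loop-helix factor gene, at 3.22 and 12 FPKM. The lower one was Tcf3 NM_011548, given above. Ldb1, which bridges factor complexes, was lower in both of its entries but by less than 2-fold, at 205 and 111 FPKM (NM_001113408) and 103 and 52.5 FPKM (NM_010697). The unfolded protein response list had a median of 0.13 over 19 entries, 2 of them 2-fold higher and 1 lower. Trib3, a pseudokinase gene, was 2.78 and 7.88 FPKM, and Asns, asparagine synthetase, was 4.50 and 10.3 FPKM. Splicing and polyadenylation factors, whose levels bear on transcript choice, had a median of 0.18 over 56 entries, 42 of them above 0. Beside 5.02% and 5.58% of all entries, 2 were 2-fold higher and none lower. These were NM_001079694 of Srsf5, listed at 0 and 6.27 FPKM, and NM_001195487 of Srsf7, at 2.59 and 7.28 FPKM. The main entries of both genes differed less, with Srsf5 NM_009159 at 63.1 and 79.1 FPKM and Srsf7 NR_036615 at 72.2 and 55.9 FPKM. NM_001079694 and NM_009159 of Srsf5 were given the same GENCODE transcript, so what separates them could not be read. Cstf3, a cleavage factor gene, was 4.81 and 9.49 FPKM as NM_001037326 and 12 and 12.7 FPKM as NM_145529.

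**Figure D4:**
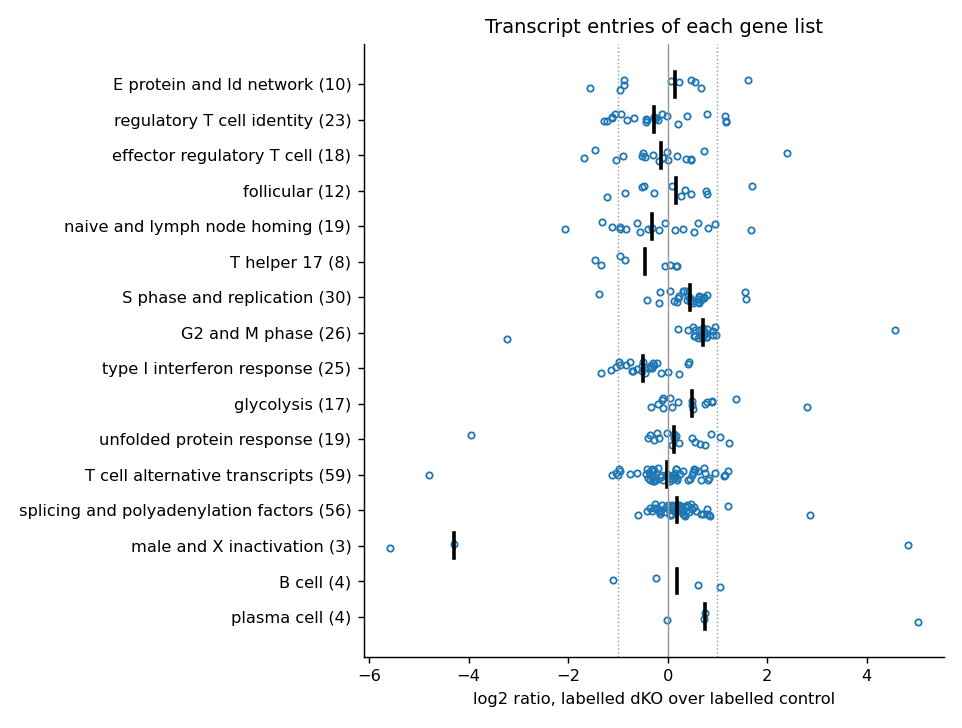
Log2 ratio (x, labelled dKO over labelled control) of every entry at 5 FPKM or more, by gene list, for lists with at least 3 such entries; the number of entries is in brackets, black bars are medians and dotted lines mark 2-fold. Most G2 and M phase entries lie between 0 and 1 and most interferon entries below 0.

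Summed per gene, the pair was set beside the authors' deposited table of the numbered libraries, which by the labels share no sample with it. Of 8647 genes whose summed FPKM reached 5 in at least 1 library, 8563 (99.0%) were found there. That table called 1068 genes higher (3.38%) and 1007 lower (3.18%) in dKO at an adjusted p under 0.05 among 31641 tested. Of the 1269 called genes measured in the pair, 1170 (92.2%, exact 95% interval 90.6 to 93.6%, over genes, which are not independent) had the same sign in the pair with the titles taken as they stand. The same sign was found in 70.9% of all 8556 matched genes with a finite ratio in that table. The median log2 ratio in the pair was 0.57 over genes the authors' deposited table called higher and -0.60 over those it called lower. Of 410 genes whose sums were 2-fold or more apart in the pair, without small RNA genes, that table called 282. This stands beside 1269 called of all 8556 matched genes. Of the 282, 268 had the same sign. The Y-linked gene Eif2s3y was higher on the control side in both comparisons, while Xist went opposite ways. The part of sex-linked differences in the shared signs was not tested.

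In the authors' deposited table Il10 had group means of 517 (control) and 3311 (dKO) scaled counts, with an adjusted p of 4.76e-07, and Klrg1 had 631 and 115, with an adjusted p of 4.39e-10, both on the side the pair showed. Gzmb, lower in the library labelled dKO, had 365 and 1209 in the authors' deposited table and an adjusted p of 1 by DESeq. Of the genes whose entries parted in the pair, Nolc1 had an adjusted p of 0.193, Crbn of 0.301, Rbm3 of 0.392 and Pecam1 and Canx of 1 and 0.319 in that table. Ahcyl2, by contrast, had a log2 ratio of 0.94 there with an adjusted p of 2.12e-06 by DESeq. Its summed FPKM in the pair was 51.3 and 115. The deposited table has 1 value per gene, so the exchanges of entries have no counterpart there.

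**Figure D5:**
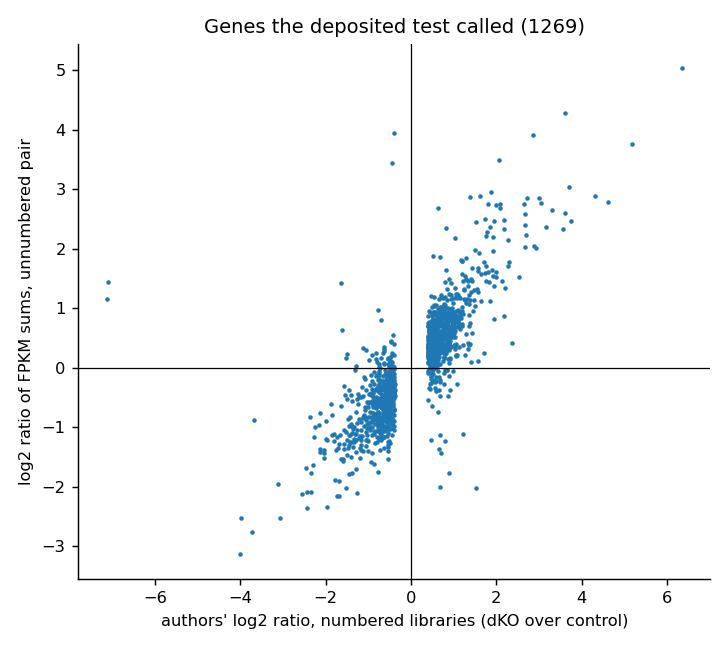
The 1269 genes called by the authors' deposited test of the numbered libraries, with the authors' log2 ratio (x) and the log2 ratio of FPKM sums in the unnumbered pair (y). Most genes, 1170 of 1269, lie at the upper right or lower left, with the same sign on both axes.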

How the data were processed

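RNA of 2 unnumbered libraries was compared. Per the labels' protocols, random hexamers and oligo-dT primed the first strand, and dUTP marked the strand. The deposited FPKM values stand beside deposited p-values and q-values in Cuffdiff's output columns, per the file headers. The submitters' processing notes name TopHat 1.4.0, Cuffdiff 0.0.6 and build mm9. The p-values compare 1 library with 1 library and were not used; the deposited table marks 23 entries as significant. For the numbered libraries, the authors' deposited table gives signal values per group (called scaled counts here), log2 ratios and adjusted p-values, from RSEM and DESeq on mm10 per the submitters' processing notes.

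Entries with status OK whose own accession is the gene identifier were kept (13190 of 27901). The 453 entries that repeat an accession at another locus were left out, and so were those with other status. Symbols were matched by accession to RefSeq genes (98.2% matched). Transcript models came from GENCODE M21 (GRCm38) by its pairing with current RefSeq versions, whose ends can differ from those the authors used. Where an accession was paired with several transcripts, the first by transcript identifier was taken. No mm9 coordinate is given. Log2 ratios used a pseudocount of 1 FPKM, with a minimum of 5 FPKM in at least 1 library, and calls were a 2-fold ratio, 2 entries at least 1 apart (log2), or a share shift of 20 points at a gene sum of 5 FPKM. Genes were named by rule: Id2 and Id3, the 12 largest entries each way at 10 FPKM, the 15 largest differences and shifts (only those printed here of the 192 changes of leader), up to 3 of each list, and T cell isoform genes with several entries. Predicted genes were not named, 1 gene of the rule is not reported here, and some genes of the rule were left out for length. Genes outside the rule are said to be so, or serve the marker and label checks. The members and the 22 lists (339 symbols) were chosen with earlier results of these data known. Functions were checked on simulated data. Python 3.11.15, pandas 2.3.3, numpy 2.4.6 and scipy 1.17.1 were used. Other pseudocounts, minimums, thresholds and a rescaling were tried.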

Additional observations from a re-analysis of the deposited data

How the results depend on the processing

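Of the counts given, the entries 2-fold lower were 297 with a pseudocount of 5 FPKM in place of 542. Without the FPKM minimum there were 839 entries 2-fold higher, 883 lower and 821 genes with differing transcripts, in place of 488, 542 and 406; with a minimum of 10 FPKM these were 323, 344 and 220. A shift of at least 30 points was reached by 222 genes in place of 382. As alternatives chosen after seeing the data, 264 of 702 genes (37.6%) had differing transcripts among entries with 1 FPKM or more in both libraries, and 193 of 456 (42.3%) where the models were over 300 bases apart. The minimums and the alternatives chosen later test more or fewer entries, the larger shift is a stricter threshold, and a larger pseudocount shrinks the ratios of low entries, which by construction changes the counts. With genes of absolute log2 of at least 1 in the numbered libraries, 96.1% had the same sign in the pair. The other settings moved these counts by less than 1.5-fold. Of 126 list medians under the alternatives, 118 moved by less than 1.5-fold, and 4 changed sign: without the minimum, the E protein and Id network list to -0.76 and the myeloid list to 0.63; with 10 FPKM, the T cell alternative transcripts to 0.02 and the B cell list to -0.23. Of 441 log2 ratios of single named entries under the pseudocounts and the rescaling, 111 moved by 1.5-fold or more, all under a pseudocount of 0.1 or 5 FPKM, and 1, near 0, changed sign. No paired analysis was possible because each side has 1 library without a replicate number, and leaving a library out leaves no comparison. The depth is unknown, so counting error could not be given for any value.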
